A study of Mus musculus with 3 samples.

Results

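Barcodes led by Scin, Banf2, Dand5 and Lsmem1, a set proposed as a type of secretory luminal cell, were described in whole mouse prostate measured by droplet single-cell RNA sequencing. A barcode tags the RNA of 1 droplet, and a unique molecular identifier (UMI) counts 1 captured transcript. Barcodes entered with at least 500 detected genes, at most 15% mitochondrial UMIs and under 10% of UMIs from the seminal vesicle secretory genes Svs1, Svs2, Svs3a, Svs3b, Svs4, Svs5 and Svs6. Members were selected on raw UMI counts: a member held at least 5 UMIs of the 4 marker genes together, and at least 2 times the summed UMIs of Ms4a5, Tcaf2, Tcaf3 and Nlrp10 and of C1s2, C1rb, Pnliprp1 and Glb1l3. These were the gene sets of the other secretory luminal types, called here the Ms4a5 Tcaf type and the C1s2 Pnliprp1 type and gated in the same way. The rule found 421 members among 18455 barcodes that passed the quality limits, of 32139 deposited. The Srd5a2 knockout library held 212 of them, against 69 in heterozygote 1 and 140 in heterozygote 2. Because the rule used UMIs of these same barcodes, levels of the gate genes are given as descriptions without a test.

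The 3 libraries came from prostates of C57BL6 mice of 12 to 15 weeks, 1 of Srd5a2-/- (knockout) and 2 of Srd5a2+/- (heterozygous) genotype, with no wild-type library, so the comparison is of no copy against 1 copy of Srd5a2. Srd5a2 encodes the steroid 5α-reductase that makes dihydrotestosterone from testosterone. The minced glands of both genotypes spent 2 h at 37 °C with dihydrotestosterone and 10 µM rock inhibitor, as the labels name it, and then 10 min in TrypLE, so RNA was read after those exposures. The labels state neither the cells that carry the deletion nor the number of animals behind a library, and p-values measure only the spread between these libraries.

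Luminal cells of the mouse prostate secrete the proteins of prostatic fluid, and each lobe makes its own mixture: Sbp (spermine-binding protein), Spink1 (a serine protease inhibitor) and Msmb (beta-microseminoprotein) are abundant secretory products, and Tgm4 is the prostate transglutaminase. Among the 4 marker genes, Scin encodes scinderin, a calcium-dependent actin-severing protein of the gelsolin family that takes part in exocytosis. Dand5 encodes a secreted antagonist of the growth factor Nodal, Banf2 a relative of the chromatin protein barrier-to-autointegration factor, and Lsmem1 a small membrane protein. Ren1 encodes renin, the protease that starts the angiotensin cascade, and was proposed as a further marker.

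Scin and Lsmem1 are neighbours. In GENCODE vM21 on mm10, the build of the deposited counts, Scin lies on chromosome 12 from 40059769 to 40134228 and Lsmem1 from 40175493 to 40199490, both on the minus strand, with 41264 bases and no annotated gene between them. The 300 bases around the starts of these neighbours and of Ren1 are printed because Scin and Lsmem1 carried most of the UMIs that define the members, while Ren1, proposed beside them, was higher in another type. Sequences are from RefSeq on GRCm38.p6, 5′ to 3′ on the gene's own strand, from 250 bases before the start to 50 after it, with capitals for a motif match. The Scin window is chr12:40134179-40134478 (minus strand), the Lsmem1 window chr12:40199266-40199565 (minus strand) and the Ren1 window chr1:133350424-133350723 (plus strand).
Scin: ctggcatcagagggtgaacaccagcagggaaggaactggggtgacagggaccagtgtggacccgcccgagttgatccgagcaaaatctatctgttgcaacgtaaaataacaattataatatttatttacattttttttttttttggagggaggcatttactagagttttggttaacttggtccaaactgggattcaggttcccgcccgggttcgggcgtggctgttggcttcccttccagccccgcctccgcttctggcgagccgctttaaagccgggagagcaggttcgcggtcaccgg
Lsmem1: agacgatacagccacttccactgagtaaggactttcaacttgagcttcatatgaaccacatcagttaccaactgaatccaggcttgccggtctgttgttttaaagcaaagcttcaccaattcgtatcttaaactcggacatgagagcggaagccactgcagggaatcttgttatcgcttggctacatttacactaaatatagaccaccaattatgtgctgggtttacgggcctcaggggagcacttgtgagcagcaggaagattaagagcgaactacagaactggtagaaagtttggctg
Ren1: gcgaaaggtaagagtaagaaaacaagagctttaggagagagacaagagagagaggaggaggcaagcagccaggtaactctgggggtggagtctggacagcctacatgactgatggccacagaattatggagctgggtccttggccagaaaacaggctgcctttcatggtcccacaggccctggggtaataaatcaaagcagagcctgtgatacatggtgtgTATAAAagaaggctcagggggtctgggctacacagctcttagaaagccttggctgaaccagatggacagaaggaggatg
In all, 4 motifs were searched on both strands in the windows of Scin, Banf2, Dand5, Lsmem1 and Ren1, with no overlap between matches. AGAACA, a half-site of steroid hormone receptors, was in none of the 5 windows and in 19.0% of 27025 mouse promoter windows of this length. GTAAACA, a forkhead motif, was in none of them and in 3.55% of all windows. TATAAA was in the Ren1 window alone of the 5, and in 14.2% of all windows. AGGTCA, the estrogen receptor half-site, was in the Dand5 window alone of the 5, and in 16.04% of all windows. A match is a run of letters, not a bound site.

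The libraries held 129015041 UMIs in 13273 barcodes (knockout), 47601747 in 5000 (heterozygote 1) and 100801564 in 13866 (heterozygote 2). The lowest barcode total was 586 UMIs in the knockout, 2466 in heterozygote 1 and 500 in heterozygote 2, so shallow barcodes were absent from heterozygote 1. The Svs limit removed 4269 barcodes from the knockout library, against 774 and 1790 from the heterozygotes. No member barcode sequence was shared between libraries, and 2 to 14 of the barcodes kept were shared between each pair. The members held 1592020 UMIs in the knockout and 823733 and 1236834 in the heterozygotes. Their median total was 3816 UMIs in the knockout, 9060 in heterozygote 1 and 4297.5 in heterozygote 2.

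The check of the label against the data went partly against it. The members were not 1 kind of barcode: the share of UMIs that the 4 marker genes took ranged from 0.0142% to 1.88% in the knockout library, and the rule was met both by shallow barcodes rich in these genes and by deep barcodes with a handful of their UMIs. They are therefore called by the rule, with no cell type name. Split at a share of 0.2%, a value chosen after the data were seen, 125 of 212 knockout members were above it, against 20 of 69 and 75 of 140 heterozygote members. Their median totals were 2851 UMIs in the knockout and 3662.5 and 1578 in the heterozygotes. The members under 0.2% had medians of 8828 UMIs in the knockout and 12237 and 15378 in the heterozygotes. A member holds at least 5 marker UMIs, so the shallowest members lie above 0.2% whatever their kind. The split therefore favours this depth contrast and the high marker levels above it, and neither is evidence of separate kinds.

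**Figure D1:**
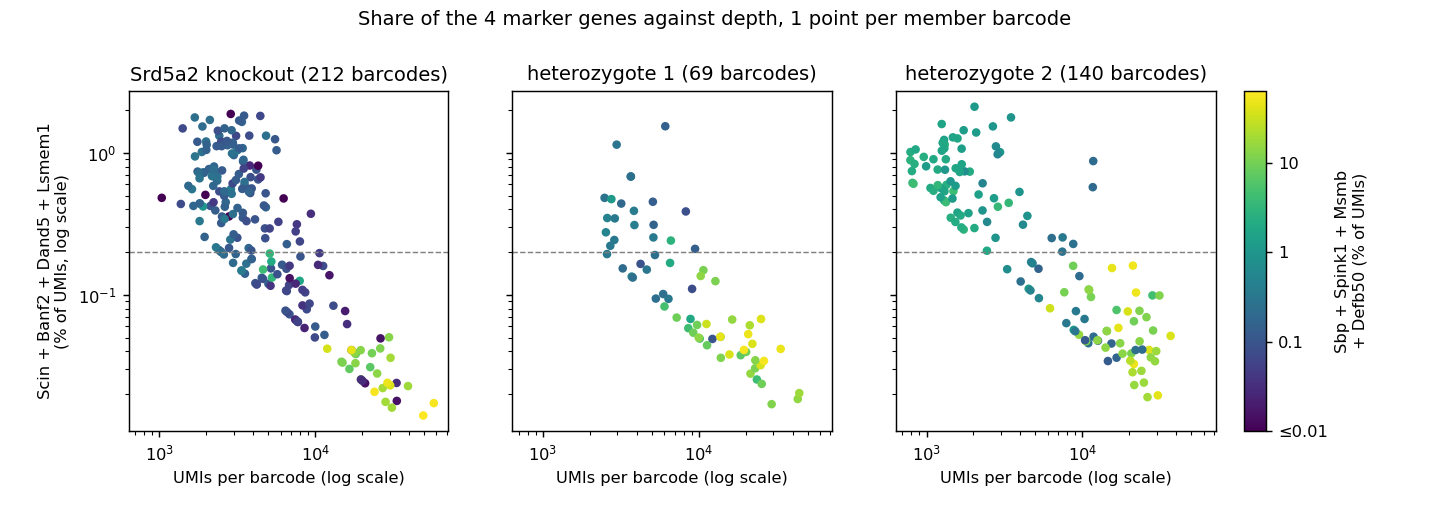
Each point is 1 member barcode, placed by its UMI total (log scale) and by the share of UMIs from Scin, Banf2, Dand5 and Lsmem1 (log scale), with a panel per library and colour for the share of Sbp, Spink1, Msmb and Defb50. Barcodes above the dashed line at 0.2% were shallow, with medians of 1578 to 3662.5 UMIs, and most of the deepest barcodes below it were rich in the 4 secretory transcripts.

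In members at or above 0.2%, all 4 marker genes were high in every library, which the split on their share favours. Scin had 3027 CPM (its UMIs scaled to a common total of 1e6) in the knockout, against 1901 and 2107 CPM in the heterozygotes. Lsmem1 had 2920 CPM in the knockout, against 1924 and 3569 CPM in the heterozygotes. Dand5 had 573 CPM in the knockout, against 630 and 588 CPM in the heterozygotes. Banf2, the lowest of the 4, had 464 CPM in the knockout, against 245 and 274 CPM in the heterozygotes. Over all members the same genes were diluted, Scin to 849 CPM in the knockout, against 288 and 397 CPM in the heterozygotes.

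The high-share members also differed from the low-share ones in transcripts the rule did not use. The secretory gene 9530053A07Rik had 29934 CPM in them in the knockout, against 37656 and 26961 CPM in the heterozygotes. In low-share members it had 582 CPM in the knockout, against 917 and 1580 CPM in the heterozygotes. It was not particular to the high-share members. Over the 3 libraries it had 21456 to 39731 CPM in the Ms4a5 Tcaf type and 33979 to 54383 CPM in the C1s2 Pnliprp1 type. Tgm4 had 5061 CPM in high-share members of the knockout, against 6962 and 8690 CPM in the heterozygotes, below its 13141 to 19998 CPM in the other secretory types. Pecam1, an adhesion molecule best known from endothelium, had 1126 CPM in the high-share members of the knockout, against 1003 and 748 CPM in the heterozygotes. Pecam1 was at 31.6 to 136 CPM in the Ms4a5 Tcaf and C1s2 Pnliprp1 types of any library. The defining endothelial genes Cdh5 and Kdr lay between 0 and 5.71 CPM in the same members, that is at or near 0.

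Malat1, a nuclear noncoding RNA, took a large share of the high-share members: 66963 CPM in the knockout, against 43311 and 55372 CPM in the heterozygotes. In the Ms4a5 Tcaf type it had 16417 CPM in the knockout, against 13190 and 6833 CPM in the heterozygotes. Svs transcripts took a median of 7.04% of UMIs in high-share members of the knockout, close to the limit of 10%, against 0.424% and 1.73% in the heterozygotes.

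Ren1 was not highest in the members. Over all members Ren1 had 508 CPM in the knockout, against 327 and 571 CPM in the heterozygotes. In the C1s2 Pnliprp1 type it had 5614 CPM in the knockout, against 12613 and 8691 CPM in the heterozygotes, so the highest member value lay below the lowest value of that type. In the Ms4a5 Tcaf type Ren1 had 202 CPM in the knockout, against 571 and 810 CPM in the heterozygotes. Within the members, the high-share barcodes had 1954 CPM in the knockout, against 2601 and 3369 CPM in the heterozygotes, and the low-share barcodes had 35.0 CPM in the knockout, against 62.3 and 109 CPM in the heterozygotes. Between these kinds of member, then, Ren1 was higher where the marker share was higher, in every library.

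The summed UMIs of low-share members were instead rich in abundant secretory transcripts. Sbp had 76363 CPM in them in the knockout, against 95707 and 63357 CPM in the heterozygotes. Defb50, a beta-defensin, had 23999 CPM in the knockout, against 38535 and 43926 CPM in the heterozygotes. Msmb had 15708 CPM in the knockout, against 24986 and 27968 CPM in the heterozygotes. In high-share members Msmb was at 161 CPM in the knockout, against 1178 and 1085 CPM in the heterozygotes. These sums rested on part of the barcodes. In the knockout 30 of 87 low-share members held at least 1% of their UMIs in Sbp, Spink1, Msmb and Defb50, against 37 of 49 and 44 of 65 in the heterozygotes.

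By a fixed rule of size, the genes whose lowest member value most exceeded the highest value in the other types were the major histocompatibility complex class II genes H2-Ab1 (8.53 times), H2-Aa (7.56 times) and H2-Eb1 (6.78 times). They marked a few barcodes: 88.0% of H2-Ab1 UMIs lay in the 10 richest of the 421 members, and 8, 2 and 4 members (knockout, then heterozygotes 1 and 2) had at least 10 UMIs of H2-Ab1, H2-Aa, H2-Eb1 and Cd74. Genes spread over more members were Erbb4, a receptor tyrosine kinase, with 175 CPM in the knockout, against 148 and 150 CPM in the heterozygotes, and Unc5c, a netrin receptor, with 122 CPM in the knockout, against 88.6 and 82.5 CPM in the heterozygotes. Erbb4 stayed at 11.1 to 29.0 CPM in both other types. Luminal markers, Krt8 and Pbsn among them, took a median of 0.489% of UMIs in knockout members, against 0.725% and 1.26% in heterozygote members. Their medians in the Ms4a5 Tcaf type were 2.74% in the knockout, against 3.09% and 2.92%. They took at least 1% in 56 of 212 knockout members, against 28 of 69 and 88 of 140 heterozygote members. Seminal vesicle markers, mostly Svs genes, did so in 200 knockout members, against 2 and 68. Smooth muscle markers took at least 1% of UMIs in 13 knockout members, against 2 and 2 heterozygote members. Immune markers did so in 0 knockout members, against 0 and 1 heterozygote members.

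**Figure D2:**
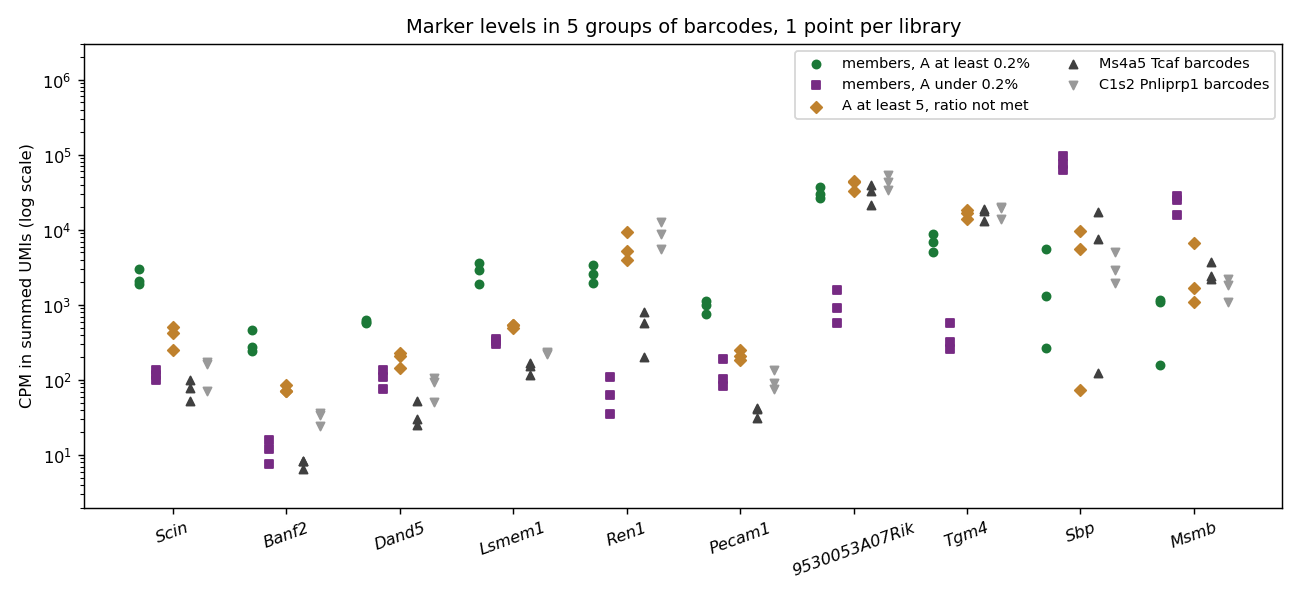
Level of 10 genes in summed UMIs (CPM, log scale) in 5 groups of barcodes, with 1 point for each of the 3 libraries; A is the summed share of Scin, Banf2, Dand5 and Lsmem1. Members with A at least 0.2% stand highest for the 4 marker genes, which the split on A favours, and for Pecam1. Members with A under 0.2% stand highest for Sbp and Msmb, and Ren1 stands highest in the C1s2 Pnliprp1 type.

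Most marker UMIs lay outside the members. The members held 20.7% of the UMIs of the 4 genes among kept barcodes in the knockout, against 7.54% and 7.42% in the heterozygotes. Barcodes with at least 5 such UMIs that failed the ratio to the other gene sets held 34.9% in the knockout, against 34.3% and 35.0% in the heterozygotes, in 276 knockout barcodes, against 245 and 514 heterozygote barcodes. In those barcodes Scin had 505 CPM in the knockout, against 421 and 250 CPM in the heterozygotes, and Tgm4 had 13821 CPM in the knockout, against 18441 and 17037 CPM in the heterozygotes. The 2-fold ratio thus set apart barcodes in which the other gene sets were scarce. Just inside the threshold, 34 knockout and 14 and 24 heterozygote barcodes had exactly 5 UMIs and met the ratio. Just outside it, 43 knockout and 30 and 41 heterozygote barcodes had 4. Sbp differed widely across this edge, with 40433 CPM just inside in the knockout, against 660 and 28360 CPM in the heterozygotes, and 18402 CPM just outside in the knockout, against 152936 and 2658 CPM. Just inside, Tgm4 had 322 CPM in the knockout, against 491 and 992 CPM in the heterozygotes, and just outside 278 CPM in the knockout, against 234 and 1459 CPM.

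Members were a larger share of barcodes in the knockout library. They were 3.71% of kept barcodes in the knockout (exact 95% interval 3.24 to 4.23), against 1.75% (1.36 to 2.21) and 1.59% (1.34 to 1.88) in the heterozygotes. Of barcodes of the 3 secretory types they were 18.7% in the knockout (16.5 to 21.1), against 4.64% (3.63 to 5.83) and 4.05% (3.42 to 4.76). The second share also depends on the other types. Among 5714 kept knockout barcodes, 400 were of the Ms4a5 Tcaf type, against 1012 of 3944 and 2496 of 8797 in the heterozygotes. The C1s2 Pnliprp1 type had 521 barcodes in the knockout, against 407 and 822. Scarcer Ms4a5 Tcaf barcodes in the knockout thus widen the gap among the 3 types. Intervals cover counting error only, and with 1 library against 2 the smallest p an exact permutation test can give is 0.33, so no test was made. With Svs genes under 2% of UMIs, 1339 of 5714 kept knockout barcodes remained, against 3785 of 3944 and 6987 of 8797 in the heterozygotes. Members among them numbered 41 in the knockout, against 68 and 106 in the heterozygotes. Their share of kept barcodes was then 3.06% in the knockout (2.21 to 4.13), against 1.797% (1.398 to 2.27) and 1.52% (1.24 to 1.83). For that share the knockout interval overlaps that of heterozygote 1 only narrowly and that of heterozygote 2 not at all. The share among the 3 types was 6.14% in the knockout (4.44 to 8.23), against 4.81% (3.76 to 6.06) and 3.96% (3.25 to 4.76), with intervals that overlap. The Svs share of the members themselves had a median of 5.25% in the knockout, against 0.185% and 0.865% in the heterozygotes.

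**Figure D3:**
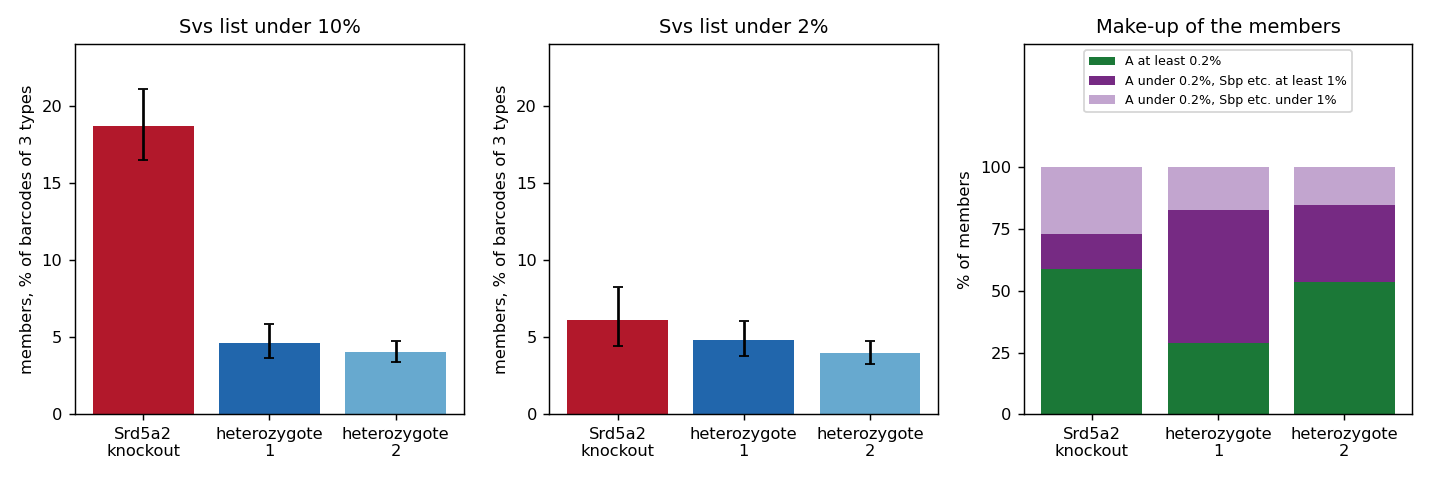
Members as a percentage of the barcodes of 3 secretory types under Svs limits of 10% (left) and 2% (middle), with exact 95% binomial intervals that cover counting error only, and the make-up of the members (right; Sbp etc. is Sbp, Spink1, Msmb and Defb50, A the summed share of the 4 marker genes). The knockout stood at 18.7% under the wide limit and 6.14% under the narrow one, against 4.64% and 4.05%, then 4.81% and 3.96%, in the heterozygotes.

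Genotypes were compared in UMIs summed over members of each library, with edgeR's quasi-likelihood test over 10249 genes, 1 knockout against 2 heterozygote sums, and Benjamini-Hochberg adjusted p under 0.05. This called 441 genes, 4.3% of those tested: 307 higher in the knockout (3%) and 134 lower (1.31%). The excess of higher calls depended on the setting. It was absent with members thinned to 2000 UMIs (95 higher, 103 lower), with at least 10 marker UMIs (269 and 253) and in high-share members (28 and 32). It was smaller with Svs genes under 2% of UMIs (139 and 110). Other settings kept it, among them low-share members (299 and 89), a 5-fold ratio (150 and 36), mitochondrial UMIs at most 10% (227 and 57) and limma-voom (169 and 91). With 1 residual degree of freedom these calls lean on a spread shared across genes, and with plain library totals in place of TMM scaling the shared spread had less weight (2.42 prior degrees of freedom, against no finite limit) and 0 genes passed (1052 at an unadjusted p under 0.05, against 1618 in the first fit, and 33 adjusted calls by DESeq2). Of the 441 calls, 197 had at least 50% of their UMIs in 10 of the 421 members. In bulk sums, fewer barcodes of a kind and less RNA per barcode cannot be told apart.

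The make-up of the sums differed between libraries. High-share members gave 24.6% of the summed UMIs in the knockout, against 10.4% and 14.2% in the heterozygotes. Low-share members with at least 1% of UMIs in Sbp, Spink1, Msmb and Defb50, named secretory-rich members below, gave 42.1% in the knockout, against 81.5% and 68.3% in the heterozygotes. The remaining low-share members gave 33.2% in the knockout, against 8.05% and 17.5% in the heterozygotes. Each gene is therefore given with its value within the secretory-rich members (30 knockout and 37 and 44 heterozygote barcodes), a subset chosen after the data were seen. These are part of the same barcodes and libraries that picked the genes, so a pass there is no independent evidence. CPM of the genotype comparison are TMM-scaled, log2 fold changes are knockout minus heterozygote with standard error, and adjusted p is edgeR's.

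Transcripts of seminal vesicle secretions stood out. Ceacam10, a secreted member of the carcinoembryonic antigen family, had 724 CPM in the knockout, against 6.46 and 11.2 CPM in the heterozygotes (log2 fold change 6.29 ± 0.42, adjusted p = 3.02e-46). Sva, seminal vesicle antigen, had 290 CPM in the knockout, against 2.58 and 1.60 CPM in the heterozygotes (7.13 ± 0.51, adjusted p = 8.05e-41). Spinkl, a Kazal-type protease inhibitor, had 339 CPM in the knockout, against 65.8 and 39.1 CPM in the heterozygotes (2.73 ± 0.35, adjusted p = 5.33e-12). The same transcripts were abundant in the barcodes that the Svs limit had removed: Ceacam10 had 18962 CPM there in the knockout, against 922 and 228 CPM in the heterozygotes. When that RNA profile was subtracted in proportion to the Svs UMIs, 0 of 1210 Ceacam10 UMIs and 0 of 485 Sva UMIs were left in the knockout sum, and neither gene could be tested. Of 567 Spinkl UMIs in the knockout 52 were left, against 22 and 29 in the heterozygotes, and the log2 fold change of Spinkl was then 0.31 (adjusted p = 0.783). Ceacam10 and Sva were also higher in the knockout in the other 2 secretory types, with log2 fold changes of 3.28 and 8.87 in the Ms4a5 Tcaf type and 6.92 and 8.50 in the C1s2 Pnliprp1 type.

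Pitpnc1 and H2-Q10 passed in the whole set and within the secretory-rich members, and kept their UMIs after the subtraction. Pitpnc1, a phosphatidylinositol transfer protein, had 489 CPM in the knockout, against 98.1 and 150 CPM in the heterozygotes (1.97 ± 0.34, adjusted p = 1.45e-06). It was seen in 194 of 212 knockout members, against 40 of 69 and 94 of 140 heterozygote members. Within secretory-rich members it had 122 CPM in the knockout, against 34.2 and 41.4 CPM in the heterozygotes (1.91 ± 0.34, adjusted p = 3.93e-06). Pitpnc1 also rose in the Ms4a5 Tcaf type (1.41, adjusted p = 0.00664) and in the C1s2 Pnliprp1 type (1.43, adjusted p = 0.000276). H2-Q10, a secreted class I histocompatibility molecule, had 56.2 CPM in the knockout, against 451 and 408 CPM in the heterozygotes (-2.92 ± 0.42, adjusted p = 8.45e-10). Within secretory-rich members H2-Q10 had 131 CPM in the knockout, against 511 and 600 CPM in the heterozygotes (-1.86 ± 0.36, adjusted p = 3.48e-05). They held 88 of its 94 UMIs in the knockout, against 343 of 349 and 507 of 511 in the heterozygotes. Its second pass thus used nearly the same counts.

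The named genes were the 12 of smallest p in each direction, after leaving out gate genes, genes under 10 CPM on average, genes whose knockout level did not lie outside both heterozygotes and genes with at least 50% of their UMIs in 10 barcodes. Of the 12 higher genes, 4 passed again within the secretory-rich members, Ceacam10, Sva, Spinkl and Pitpnc1, and 3 could not be fitted there. The other 5 did not pass there, though Icam1 (2.61 ± 1.44) and Taco1 (1.67 ± 1.34) had folds near those over all members with wider errors. Flna, the actin crosslinker filamin A, had 157 CPM in all knockout members, against 31.0 and 39.9 CPM in the heterozygotes (2.13 ± 0.35, adjusted p = 4.67e-07). Within secretory-rich members Flna had 19.4 CPM in the knockout, against 5.96 and 33.1 CPM in the heterozygotes (adjusted p = 0.987). The smooth muscle marker list, whose cells express Flna strongly, took 0.237% of the summed member UMIs in the knockout, against 0.0534% and 0.0851% in the heterozygotes, and its part in the Flna difference was not tested. Sprr2a2, a small proline-rich protein, had 288 CPM in all knockout members, against 111 and 55.9 CPM in the heterozygotes. Its level in secretory-rich members was 10.4 CPM in the knockout, against 14.9 and 5.91 CPM in the heterozygotes. Cacng5, a calcium channel gamma subunit, had 487 CPM in the high-share members of the knockout, against 163 and 131 CPM in the heterozygotes, and 17.9 CPM in the secretory-rich ones, against 17.9 and 30.8 CPM. Icam1 (an adhesion molecule), Pcdh7 (a protocadherin), Catsperb (a sperm ion channel subunit), Taco1 (an activator of mitochondrial cytochrome oxidase synthesis) and 4930526L06Rik completed the list, with log2 fold changes of 2.10 to 3.04.

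Of the 12 lower genes, 8 passed again within the secretory-rich members, which hold part of the same counts. For Cela1 they held 7 of 8 UMIs in the knockout, against 31 of 31 and 54 of 54 in the heterozygotes. Cela1, a serine elastase, had 4.79 CPM in the knockout, against 40.0 and 43.1 CPM in the heterozygotes (-3.09 ± 0.53, adjusted p = 1.45e-06), and within secretory-rich members 10.4 CPM in the knockout, against 46.2 and 63.9 CPM in the heterozygotes (adjusted p = 0.0047). Cited2, a transcriptional co-regulator, had 43.7 CPM in the knockout, against 174 and 159 CPM in the heterozygotes, and 53.7 CPM in secretory-rich members of the knockout, against 176 and 194 CPM in the heterozygotes (adjusted p = 0.00296). Hs6st3, a heparan sulfate sulfotransferase, had 14.9 CPM in secretory-rich members of the knockout, against 62.5 and 99.4 CPM in the heterozygotes (adjusted p = 0.000245). Mt3, a metallothionein, had 0 UMIs there in the knockout, against 14 and 35 UMIs in the heterozygotes. Ube2m (a NEDD8-conjugating enzyme), Tmem117 and Apoc1 (an apolipoprotein) also passed there, while Tmem238, Pcbd1, Cldn10 (a claudin) and Wfdc3 did not. Wfdc3, a whey acidic protein family inhibitor, had 1284 CPM in all knockout members, against 5500 and 3889 CPM in the heterozygotes (-1.86 ± 0.41, adjusted p = 0.000441). Within secretory-rich members Wfdc3 had 3178 CPM in the knockout, against 6307 and 5716 CPM in the heterozygotes (-0.70 ± 0.38, adjusted p = 0.759).

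**Figure D4:**
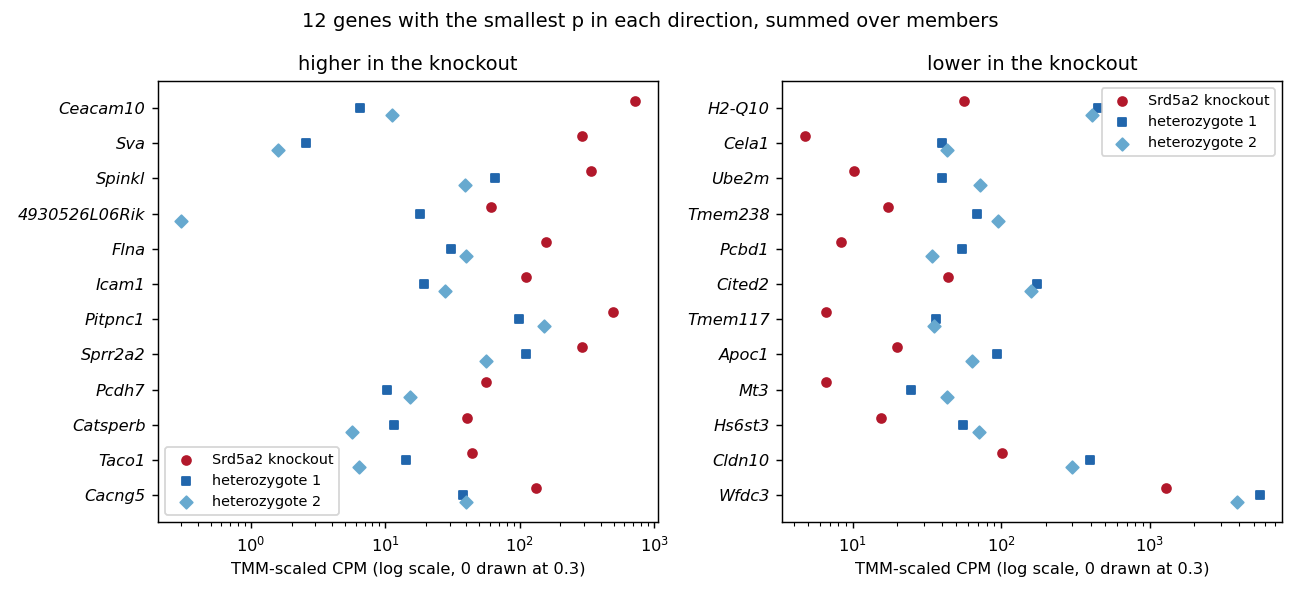
TMM-scaled CPM (log scale) of the named genes in the members' summed UMIs, with 1 point per library and a value of 0 drawn at 0.3. The knockout lies outside both heterozygotes for each of the 24 genes because the naming rule required it, and the gap is widest for Ceacam10 and Sva.

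Of 16 secretory products tested, 2 rose (Ceacam10 and Spinkl, neither of which was called after the seminal vesicle profile was subtracted) and 3 fell (Wfdc3, Azgp1 and Crisp1), with a median log2 fold change of -0.92 against -0.02 over all genes tested. Over all genes tested, 3% were called higher and 1.31% lower. Of the 16, 11 lay below both heterozygotes, against 37.1% of all genes. Azgp1, zinc-alpha-2-glycoprotein, had 219 CPM in the knockout, against 593 and 519 CPM in the heterozygotes (-1.34 ± 0.38, adjusted p = 0.0157). Crisp1, a secreted sperm-binding protein, had 0 UMIs in the knockout, against 1 and 39 UMIs in the heterozygotes, at least 11-fold lower in the knockout against a floor of 3 UMIs, with its UMIs in 6 heterozygote barcodes. That bound rests on heterozygote 2, since without it 1 heterozygote UMI remains and no bound can be given. Sbp itself did not pass, with 54862 CPM in the knockout, against 91335 and 54484 CPM in the heterozygotes. Within the secretory-rich members Crisp1 could not be fitted and Azgp1 did not pass, with 478 CPM in the knockout, against 660 and 705 CPM in the heterozygotes.

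Androgen-responsive genes went both ways. Of 21 tested, 2 rose (Pmepa1 and Ndrg1) and 5 fell, among them Azgp1, Fkbp5, Hpgd and Mme, with a median of -0.24, against 3% higher, 1.31% lower and a median of -0.02 over all genes tested. Fkbp5, a chaperone of steroid receptors, had 72.4 CPM in the knockout, against 227 and 160 CPM in the heterozygotes (-1.40 ± 0.38, adjusted p = 0.00938). Mme is the peptidase neprilysin, and Hpgd degrades prostaglandins. Ndrg1, a differentiation-related gene, had 82.6 CPM in the knockout, against 23.2 and 31.1 CPM in the heterozygotes. Within secretory-rich members the 5 lower genes did not pass and Pmepa1 and Ndrg1 could not be fitted. Fkbp5 had 113 CPM there in the knockout, against 243 and 198 CPM in the heterozygotes (-0.73 ± 0.34, adjusted p = 0.552). Prostate identity factors showed 0 higher and 2 lower of 15, among them Creb3l4, a membrane-bound transcription factor, with a median of -0.38.

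No steroid receptor or enzyme was called by edgeR. Srd5a2, the targeted gene, had 1 UMI in knockout members, against 1 and 5 UMIs in heterozygote members, too few to test. The labels do not state which part of the gene is deleted, so these UMIs are no check of the labels. Srd5a1, the other main 5α-reductase, had 11 UMIs in the knockout, against 1 and 1 in the heterozygotes, a ratio of 6.67 (exact 95% interval 1.46 to 61.9, counting error only). Of 8 steroid receptors and enzymes tested, 0 rose and 0 fell under edgeR, against 3% higher and 1.31% lower over all genes tested. Of 7 estrogen-responsive genes tested 0 rose and 0 fell, among them Pgr, the progesterone receptor, with 25 UMIs in the knockout, against 5 and 3 in the heterozygotes (1.87 ± 0.76, adjusted p = 0.155).

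Esr1, estrogen receptor alpha, had, over all members, 147 CPM in the knockout, against 90.4 and 80.6 CPM in the heterozygotes (0.79 ± 0.35, adjusted p = 0.214). In high-share members it had 410 plain CPM in the knockout, against 327 and 114 CPM in the heterozygotes, and in low-share members 70.9 CPM in the knockout, against 56.9 and 76.3 CPM. With each barcode thinned to 2000 UMIs, 29.3% of knockout members had an Esr1 UMI (55 of 188, exact interval 22.9 to 36.3), against 26.1% (18 of 69, 16.3 to 38.1) and 14.3% (13 of 91, 7.83 to 23.2) in the heterozygotes, after leaving out 24 knockout and 0 and 49 heterozygote barcodes that were shallower. Unthinned, the shares were 46.2% in the knockout, against 46.4% and 37.9%. For comparison, barcodes with at least 3 UMIs of the immune marker list were thinned to 2000 UMIs in the same way. They had an Esr1 UMI in 5.38% of cases in the knockout, against 10.6% and 8.55% in the heterozygotes, with median depths of 3980, 5896 and 8016 UMIs. Unthinned, 13.9% of them had one in the knockout, against 29.5% and 27.5%. Whether these barcodes lack the gene was not tested, so they are no measure of a level of 0. Thinned barcodes with at least 3 UMIs of Ptprc, Lyz2, C1qa and Cd3e, leukocyte genes chosen after the data were seen, had an Esr1 UMI in 4.70% of cases in the knockout, against 0 of 49 (exact upper limit 7.25%) and 2.27% in the heterozygotes. In the other secretory types the share was 17.9% and 16.8% in the knockout, against 14.3% to 20.6% in the heterozygotes. Within high-share members it was 46.5% in the knockout, against 45% and 11.5% in the heterozygotes, and within low-share members 11.5% in the knockout, against 16.3% and 16.9%. At 1000 UMIs the shares over all members were 21.2% in the knockout (15.9 to 27.4), against 7.25% (2.39 to 16.1) and 6.87% (3.19 to 12.6). There the knockout interval overlaps that of heterozygote 1 only narrowly and that of heterozygote 2 not at all. At 4000 UMIs they were 30.0% (21.2 to 40.0), against 23.1% (12.5 to 36.8) and 22.2% (13.3 to 33.6), with intervals that overlap. Each thinned share is 1 random draw, and its interval leaves out that part of the spread. The intervals cover counting error only and not the spread between libraries, so their overlap or lack of it is no test of genotype. At 2000 UMIs the knockout interval over all members overlaps those of both heterozygotes, that of heterozygote 2 only narrowly. Within high-share members it does not overlap that of heterozygote 2 (36.5 to 56.7, against 2.45 to 30.2). The heterozygotes also differed widely from each other there, at 45% and 11.5%. With Svs genes under 2% the order turned, to 7.32% in the knockout, against 25% and 12.9% in the heterozygotes.

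The remaining list counts stand beside 3% called higher and 1.31% called lower over all genes tested, and no list was tested against those shares. Of 16 genes of the exocytosis machinery 0 rose and 0 fell (median -0.63), and of 12 genes of the gelsolin family and actin severing 0 rose and 0 fell (median -0.16). Endoplasmic reticulum folding genes showed 1 higher (Trib3, a pseudokinase induced by stress) and 1 lower (Creb3l4) of 26. Of 8 renin-angiotensin genes 2 fell, Mme and Agtr1a, the angiotensin receptor, which had 28.7 CPM in the knockout, against 96.8 and 91.0 CPM in the heterozygotes (-1.70 ± 0.40, adjusted p = 0.0014). In the DAN and bone morphogenetic protein pathway, 2 of 15 rose: Fstl1, a follistatin-like secreted protein, and Id2, a target of the pathway. Cholesterol synthesis genes showed 0 higher and 1 lower of 19 (Idi1, an isoprenoid enzyme), with 14 below both heterozygotes, against 37.1% below both and 1.31% called lower over all genes, and zinc and citrate genes 0 higher and 1 lower of 20 (Mt3), with 17 below both. Glutathione and oxidative defence genes showed 0 higher and 2 lower of 24 (Gpx3 and Gsta3, a peroxidase and a transferase). Insulin-like growth factor genes showed 2 higher of 10, the binding proteins Igfbp5 and Igfbp6, with 59.1% and 77.6% of their UMIs in 10 of the 421 members. Rsad2 aside, none of the genes named in this paragraph other than Mt3 passed within secretory-rich members, and Fstl1, Trib3, Igfbp5 and Igfbp6 could not be fitted there. Log2 fold changes of Id2 (1.40), Klf2 (-1.99) and Idi1 (-1.39) were there close to those over all members (1.21, -1.65 and -1.79). For Id2 and Idi1 a lost call thus does not show a lost difference. Klf2 had 3 UMIs there in the knockout, against 26 and 5 in the heterozygotes, so its value rests on heterozygote 1. Closer to 0 there than over all members were Agtr1a (-0.67), Gpx3 (-0.70), Gsta3 (-0.53), Mme (-0.27), Creb3l4 (-0.61), Jund (-0.93) and Ier3 (0.76). Interferon-stimulated genes showed 1 higher of 18, Rsad2, an antiviral enzyme, whose 28 knockout UMIs lay in 7 barcodes. Immediate early genes showed 1 higher (Ier3) and 2 lower (Jund and Klf2) of 25. No called gene was found among 10 polyamine, 7 cell cycle and 16 heat shock genes under edgeR.

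Whether the genotype difference in the members differed from that in the other secretory types was tested in 1 model over the 9 sums. Of 15784 genes, 367 passed (2.33%): 123 were higher in the members' difference (0.779%) and 244 lower (1.55%), a split of 33.5% higher that became 52.9% of 189 genes under median-ratio scaling. Of the 441 genes called in the members, 120 were also called here with the same sign. Ren1 passed because it was lower in the knockout in the Ms4a5 Tcaf type (-1.74, adjusted p = 0.0119), had a difference of -0.87 in the C1s2 Pnliprp1 type (adjusted p = 0.536), and had one of 0.09 in the members (adjusted p = 0.939). In the members the Ren1 value turned with the gate: it was lower in the knockout with Svs genes under 2% (-4.25, adjusted p = 8.7e-20) and within secretory-rich members (-1.60, adjusted p = 0.0247). Plain Ren1 CPM was also lower in the knockout within high-share members (1954, against 2601 and 3369) and within low-share members (35.0, against 62.3 and 109). High-share members gave 24.6% of member UMIs in the knockout, against 10.4% and 14.2%. The part of this make-up in the Ren1 result was not tested. Ceacam10, Sva, Pitpnc1 and H2-Q10 did not pass this test, with adjusted p of 0.326, 0.44, 0.359 and 0.399.

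**Figure D5:**
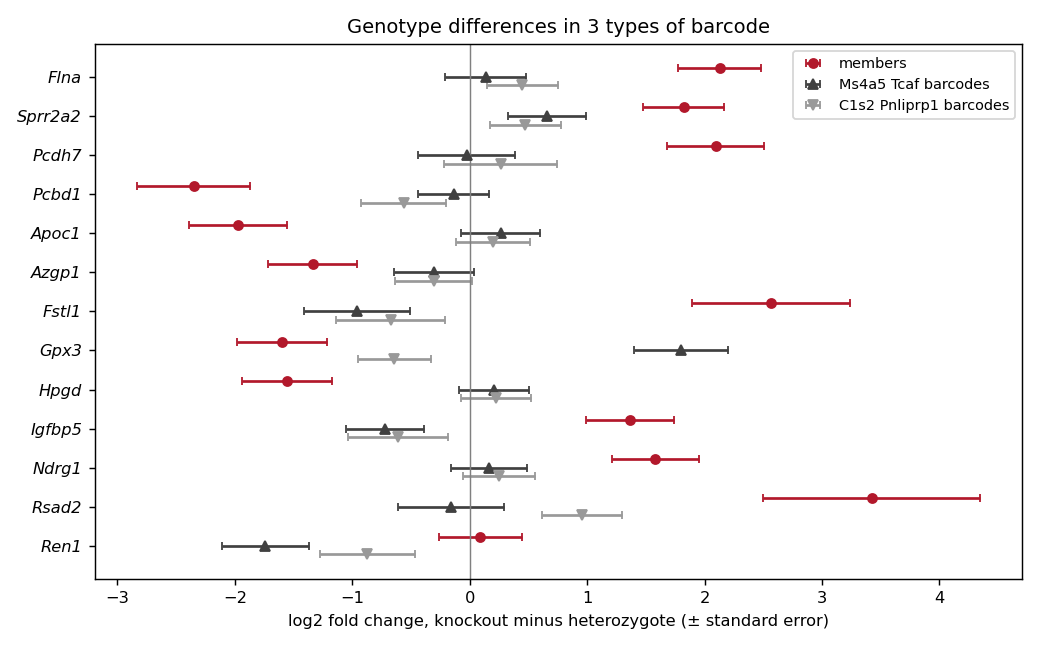
Log2 fold change (knockout minus heterozygote, with standard error) of the 13 named genes whose genotype difference in the members passed the test against the other types. Flna, Pcdh7 and Ndrg1 stand near 0 in both other types, and Ren1 stands near 0 in the sum over all members. Within high-share and within low-share members Ren1 CPM was lower in the knockout than in both heterozygotes.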

How the data were processed

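Raw UMI counts per gene and barcode (32594 genes) were deposited for 3 libraries, and the submitters' processing notes name Cell Ranger 3.1.0 and mm10; cell calling and chemistry: not given in the sources used here. The members and gene lists were chosen with earlier results of these data known, so they are not independent evidence. Gates used raw UMIs, with no clustering. Doublets were not called; a gate on markers of other cell classes was an alternative. UMIs were summed per library and type, filtered with filterByExpr, TMM-scaled and tested with edgeR 4.0.16 (quasi-likelihood, 1 residual degree of freedom; 2 in the model over 3 types), Benjamini-Hochberg adjusted over all genes tested. Named genes were the 12 of smallest p in each direction among called genes of at least 10 CPM, outside both heterozygotes and with under 50% of UMIs in the 10 richest members, every called gene of a list, and a fixed set of steroid genes with Ren1; some genes are not reported here. Tested on simulated data over 10016 genes, the genotype step recovered 14% of 2-fold and 72% of 4-fold changes, so small changes are mostly missed. Thinning drew UMIs without replacement (seed 7). Shares carry Clopper-Pearson 95% intervals, and depth limits genes of few UMIs. Alternatives used DESeq2 1.42.0, limma 3.58.1, and other filters, gates and scalings.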

Additional observations from a re-analysis of the deposited data

Results flagged for a closer look

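Genotype differences that were unlike those of the other secretory types, by the test of the difference itself (edgeR, adjusted over all genes), were found for 13 named genes. Values are the members' log2 difference minus the mean of the other 2 types, knockout minus heterozygote. Higher in the members were Fstl1 (3.35), Rsad2 (3.04), Igfbp5 (1.95), Pcdh7 (1.90), Flna (1.76), Ren1 (1.31), Ndrg1 (1.30) and Sprr2a2 (1.10). Lower in the members were Apoc1 (-2.36), Gpx3 (-2.15), Pcbd1 (-2.10), Hpgd (-1.86) and Azgp1 (-1.14). The Ren1 value holds for the sum over all members. Within high-share and within low-share members Ren1 CPM was lower in the knockout than in both heterozygotes. Fstl1, Igfbp5 and Rsad2 had 59.5%, 59.1% and 100% of their UMIs in 10 of the 421 members. Gpx3, whose difference was 1.798 in the Ms4a5 Tcaf type and -1.60 in the members, had 4404 CPM in that type in the knockout, against 1753 and 814 CPM in the heterozygotes. In the members, secretory-rich barcodes gave 42.1% of UMIs in the knockout, against 81.5% and 68.3% in the heterozygotes; the part of this make-up in these 13 differences was not tested.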

How the results depend on the processing

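The gate decides much of what is seen, and it was changed in ways chosen with and after sight of the data; the cause of each shift was not tested. Genes called between genotypes numbered 441, and 0 with plain totals, 33 with DESeq2, 260 with limma-voom, 37 with at least 10 UMIs in every library, 186 at a 5-fold ratio, 249 with Svs genes under 2%, 284 with mitochondrial UMIs at most 10%, 6 with under 3 UMIs of other-class markers and 198 after thinning. Settings added after seeing the data gave 60 in members with a marker share of at least 0.2% and 102 in secretory-rich members. Genes that differed from the other types numbered 367, and 189 with median-ratio scaling, 95 with DESeq2, 212 and 233 against the Ms4a5 Tcaf and C1s2 Pnliprp1 types alone, 108 with Svs genes under 2%, 59 at a 5-fold ratio and 236 in members of at least 0.2%. The gap in share of kept barcodes (knockout minus mean heterozygote, percentage points) was 2.04, and 2.87 with at least 3 marker UMIs, 1.35 with at least 10, 1.58 at a 5-fold ratio, 1.41 with Svs genes under 2%, 1.81 with mitochondrial UMIs at most 10%, 1.804 with at least 2500 UMIs, 0.754 with the other-class limit, 1.32 when thinned before the gate and 0.731 over barcodes without the Svs limit. Among the 3 types the gap was 14.4, and in the same order 17.4, 10.7, 17.1, 1.75, 13.2, 12.3 and 5.61, with 11.03 when thinned and 18.3 at a ratio of 0.5 (added). The Esr1 gap of 9.07 points was 18.3 in members of at least 0.2%, and reversed to -11.7 with Svs genes under 2%, -19.4 with the other-class limit (8 knockout and 6 and 30 heterozygote members in all) and -5.13 in members under 0.2%. Named genes that changed sign, none called there except Ren1, were 4930526L06Rik (-1.60), Sprr2a2 (-1.03), Cacng5 (-0.72), Igfbp6 (-1.14) and Ren1 (-4.25) with Svs genes under 2%; Sprr2a2 (-1.15) and Azgp1 (0.21) with the other-class limit; Igfbp6 (-1.71) and Pmepa1 (-0.33) with at least 10 marker UMIs; Gpx3 (0.49), Id2 (-0.97), Ier3 (-0.20), Igfbp6 (-0.70) and Ndrg1 (-1.35) in members of at least 0.2%; Cacng5 (-0.034) and Ren1 (-1.35) under 0.2%; and Cacng5 (-0.24) and Ren1 (-1.60) in secretory-rich members. Of 46 named genes called, 4 (Ceacam10, Sva, Pitpnc1 and H2-Q10) passed wherever they had a value, leaving aside plain totals and the other-class limit. Ceacam10 and Sva had no value after the subtraction of seminal vesicle RNA, which left 0 of their knockout UMIs. Leaving out a heterozygote leaves no residual degree of freedom, so it gave values without tests and no count of calls: the share gaps were 1.96 and 2.12 points of kept barcodes, 14.1 and 14.7 of the 3 types, and 3.17 and 15.0 for Esr1, and no named call changed sign. No paired analysis was possible because there is 1 knockout library and the replicate numbers only name samples.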
